A study of Mus musculus with 24 samples.

Results

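The genes examined are 10 targets through which NF-κB acts on cell survival, signalling, adhesion and redox defence: Birc2, Birc3, Traf1, Traf2, Icam1, Vcam1, Csf1, Sod2, Ripk2 and Cd83. A region of open chromatin was counted for a gene where it overlapped the gene's body, or where the closest protein-coding gene end, at most 50 kb away, belonged to that gene. This gave 6 of the 13910 regions in the table, 1 each for Birc2, Birc3, Traf2, Csf1, Sod2 and Ripk2. Traf1, Icam1, Vcam1 and Cd83 had no region.

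The study asked how the marrow environment of the host acts on blood stem and progenitor cells. Marrow from wild-type CD45.1 donors was given to young CD45.2 hosts that were either wild-type (WT recipients) or of a line designated IκB– (IκB– recipients), and the labels do not describe the genetic change of that line or the cells it affects. The donor genotype was the same in every group, so the recipient type is what differs. Donor cells were recovered 13 to 15 weeks later and sorted, after lineage depletion, into 4 subsets of 500 to 1500 cells a sample: the long-term haematopoietic stem cell (HSC) and 3 kinds of multipotent progenitor called MPP2, MPP3 and MPP4. Recipient type (2 kinds) and subset (4 kinds) made 8 groups of 3 ATAC-seq libraries, an assay in which a transposase cuts and tags accessible DNA. Nothing in the labels says whether replicates came from separate transplanted animals, so the p-values measure the spread between these libraries, which may be technical.

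NF-κB is a family of dimeric transcription factors held inactive in the cytoplasm by IκB proteins. Signals from tumour necrosis factor, interleukin-1 and Toll-like receptors activate a kinase complex that marks IκB for degradation, and the freed dimers enter the nucleus and bind κB sites. Many of their targets feed back on the same pathway or protect the cell from death, and in the marrow the pathway is known for its part in inflammatory signalling and blood cell production. Accessibility of a promoter is not expression, and a promoter can be open at the same level while its gene's transcription differs.

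Library totals ran from 121599 to 963699 counts, with between 1.40% and 12.0% of counts in the 5 mitochondrial regions. In WT MPP3, a chi-square test over 13126 regions found no difference between replicates 2 and 3 past sampling noise, unlike any other pair of replicates within a group, so they were summed and counted as 1 sample, which leaves 23 samples and n = 2 for WT MPP3. Of 12 HSC and progenitor markers 9 had a region. The region in Slamf1, which encodes the stem cell surface protein CD150, averaged 34.5 CPM in WT HSC and 28.0 in WT MPP2 against 6.42 in WT MPP3 and 19.9 in WT MPP4, while the labels describe the HSC gate as lacking CD150. In IκB– recipients it averaged 10.4, 9.58, 0.63 and 4.42 CPM, in the order HSC to MPP4. In the IκB– MPP3 samples 3 counts are 2.8 to 8.0 CPM, so the size of its fold change rests on few counts. Of the 16 tested regions of that list 1 was called lower and 1 higher in IκB– recipients, beside 1.73% of all regions called in either direction, and the list's median log2 fold change was 0.10. The Slamf1 region was lower in IκB– recipients (log2 fold change -1.95 ± 0.44 SE, edgeR quasi-likelihood test with Benjamini-Hochberg adjustment, adjusted p = 0.0157, or -1.76 with adjusted p = 0.150 without WT MPP3 replicate 2-3). A region outside genes nearest Cd34, a progenitor surface protein, was higher (1.11 ± 0.28, adjusted p = 0.0319), a call lost with limma-voom (0.0579) and in 9 of the 23 fits that leave out 1 sample, those without WT HSC 1, HSC 2, MPP2 2, MPP3 1 or MPP4 2, or IκB– HSC 3, MPP2 2, MPP3 3 or MPP4 3 (0.0118 to 0.146 over all fits). Another region outside genes nearest Cd34, chr1:194927975-194928305, was not called between recipient types. From WT to IκB– recipients its mean went from 72.5 to 51.7 CPM in MPP3 and from 47.7 to 68.4 in MPP4. It was also lower in IκB– recipients in MPP2 and higher in HSC, so the Cd34 call holds for 1 region and not for the locus. The part of these marker differences in the results was not tested. Of 9 markers of mature myeloid cells 5 had no region, namely Ly6g, Cd14, S100a8, Elane and Mpo, and the summed level of the list ran from 42.1 to 145 CPM in WT samples and from 69.6 to 156 CPM in IκB– samples. Their median log2 fold change between recipient types was 0.31, against -0.37 for 6 regions of megakaryocyte markers, -0.26 for 4 of erythroid markers and 0.12 for 3 of stromal and endothelial markers, with no region called in any of these 4 lists. The joint subset test called 3 of the 16 HSC and progenitor regions, 2 of the megakaryocyte and 1 of the stromal and endothelial regions, and none of the myeloid or erythroid ones, beside 7.2% of all regions.

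All 6 regions lay within 1 kb of an end of their gene, as did 54.8% of the 13905 nuclear regions, and the 5 whose gene has a promoter window in the RefSeq table used overlapped it, while Ripk2 was not compared with one. Positions are in mm10, the build named in the submitters' processing notes, with genes placed by RefSeq on GRCm38.p6. Birc2 and Birc3 encode cellular inhibitors of apoptosis, ubiquitin ligases that act downstream of tumour necrosis factor receptors, and are neighbours on chromosome 9. The Birc2 region was chr9:7836796-7837388 (593 bp) and the Birc3 region chr9:7872778-7873227 (450 bp). Traf2, an adaptor that recruits those ligases to the receptors, had chr2:25546696-25547231 (536 bp). Ripk2, the kinase through which the intracellular sensors NOD1 and NOD2 signal to NF-κB, had the widest of the set, chr4:16163358-16164230 (873 bp). Csf1, which encodes macrophage colony-stimulating factor, had chr3:107760072-107760452 (381 bp), and Sod2, the mitochondrial superoxide dismutase, had chr17:13007678-13008160 (483 bp). The Csf1 and Ripk2 regions also overlap the lncRNA genes Gm40121 and A530072M11Rik, and the counts of a shared region cannot be split between the genes.

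Among the 4 genes with no region, Icam1, which encodes the adhesion ligand for leukocyte integrins, came closest: a region began 2010 bp beyond its end, at the neighbouring gene Icam4, and was assigned there. The nearest region to Traf1, an adaptor of the same family as Traf2, was 36271 bp away, inside Phf19. Cd83, a surface protein of activated antigen-presenting and B cells, had its nearest region 61366 bp away, and Vcam1, the vascular adhesion molecule bound by integrin on blood cells, 102304 bp away at Slc30a7. Of all 21631 protein-coding genes 48.7% had a region by the same rule, against 6 of these 10. A gene without a region is one for which the table lists none, and its accessibility is not measured here.

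Promoter sequence, 250 bases before to 50 bases after the start site, was taken from RefSeq on GRCm38.p6 for 7 of the 10 genes, on the gene's own strand. The sequences shown are those of Birc3, whose region had the smallest p between recipient types although it did not pass the adjusted threshold, and of Csf1 and Sod2, which hold a match to the κB consensus, in capitals.
Birc3 (chr9:7873121-7873420, minus strand): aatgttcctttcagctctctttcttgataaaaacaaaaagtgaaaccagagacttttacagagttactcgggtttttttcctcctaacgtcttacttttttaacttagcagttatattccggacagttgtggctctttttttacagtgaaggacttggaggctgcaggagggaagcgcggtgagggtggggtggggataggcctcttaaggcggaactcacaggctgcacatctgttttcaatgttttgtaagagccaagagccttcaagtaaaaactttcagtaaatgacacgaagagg
Csf1 (chr3:107760420-107760719, minus strand): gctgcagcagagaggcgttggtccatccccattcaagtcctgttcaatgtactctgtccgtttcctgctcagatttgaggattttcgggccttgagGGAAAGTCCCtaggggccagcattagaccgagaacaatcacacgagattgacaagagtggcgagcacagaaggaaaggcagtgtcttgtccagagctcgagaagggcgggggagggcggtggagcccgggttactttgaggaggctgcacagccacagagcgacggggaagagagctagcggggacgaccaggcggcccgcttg
Sod2 (chr17:13007589-13007888, plus strand): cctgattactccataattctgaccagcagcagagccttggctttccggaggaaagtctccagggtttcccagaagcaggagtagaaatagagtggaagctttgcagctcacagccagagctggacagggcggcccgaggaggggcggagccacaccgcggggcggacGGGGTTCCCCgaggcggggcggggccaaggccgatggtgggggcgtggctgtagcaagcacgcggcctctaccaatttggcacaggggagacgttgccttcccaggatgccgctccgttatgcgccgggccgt
The κB consensus was searched on both strands. It matched 1 place in Csf1, GGAAAGTCCC starting 154 bases before the start site, and 1 place in Sod2, GGGGTTCCCC starting 83 bases before it, and none in the windows of Birc2, Birc3, Traf1, Traf2 or Icam1. The Csf1 match lay outside the counted Csf1 region, which overlaps another part of the window, and the Sod2 match lay inside the Sod2 region. Of 32851 promoters 8.46% held a match, and of the 8597 that overlap a region 10.1% did. A match is a description of letters and no evidence of binding, and known κB sites outside these letters or this window would not be found.

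Of the 5 genes with a region and a promoter window, leaving Ripk2 out, all but Birc3 had windows rich in G and C. Its window held 43.0% G and C, against 58.7% in Csf1, 60.0% and 67.0% in the windows of the 2 Birc2 start sites, 64.0% in Traf2 and 64.3% in Sod2. The median was 63.0% for promoters that overlap a region and 49.7% for those that do not. GC boxes (GGGCGG on either strand, in 73.0% of promoters with a region) numbered 4 in Sod2, 2 in Csf1, 1 in Traf2, 2 in Icam1 and 2 in 1 of the Birc2 windows, with none in Birc3. A TATA box (TATAAA, either strand, 13.6% of all promoters) was found in Icam1 only, and the cyclic AMP response element (TGACGTCA, 1.79%) in the other Birc2 window only. No AP-1 motif (TGANTCA, either strand, 7.81%) was found in any of them, and matches to different motifs did not overlap.

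Per kilobase of region the 6 regions spanned a wide range of accessibility. CPM values, a region's count relative to the library total scaled by edgeR's trimmed mean of M-values (TMM), were divided by region width and averaged over the 23 samples. Ripk2 stood at 434 ± 91.9 CPM per kb (SD, n = 23), above 99.6% of the 7617 regions within 1 kb of a gene end. Birc2 followed at 290 ± 57.8, above 93.0% of them, and Sod2 at 240 ± 63.5, above 84.1%. Traf2 at 180 ± 51.2 and Birc3 at 172 ± 55.2 lay close to the median of 159, at percentiles 62.1 and 57.9. Csf1 was the least accessible at 94.4 ± 39.8 CPM per kb, above only 7.54% of gene-end regions. Its counts ran from 1 to 54 per sample, so its values carry the largest counting error of the set.

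**Figure D1:**
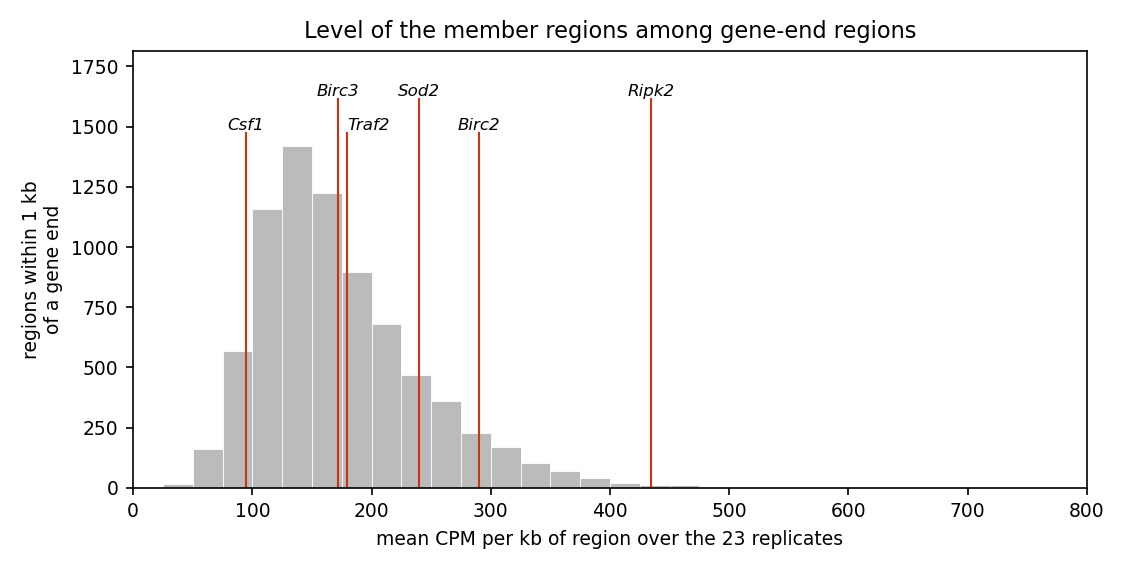
Histogram of the mean accessibility (CPM per kb of region, x axis) of the 7617 regions within 1 kb of a gene end, with the 6 genes' regions marked by red lines. The Csf1 region, at 94.4, lies in the lower tail and the Ripk2 region, at 434, in the far upper tail.

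The spread between replicates was near what counting alone gives for Csf1 and Birc3 and above it for the others. The pooled coefficient of variation within groups was 38.2% for Csf1 against 40.3% from counting alone, and 21.7% for Birc3 against 24.6%. It was 22.1% against 10.8% for Ripk2, 22.7% against 16.3% for Birc2, 30.2% against 21.5% for Traf2 and 31.8% against 21.2% for Sod2. These counting errors treat each read as independent, which PCR copies are not.

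The first comparison asks whether the recipient type moved these regions in donor cells. No member passed the test for the mean recipient effect over the 4 subsets (0 of 6 at an adjusted p under 0.05, edgeR, where 1.73% of all 13325 tested regions did; 1 of 6 at an unadjusted p under 0.05, where 14.3% did). DESeq2 and limma-voom also called 0 of 6. The share over all regions depended on single samples: 231 regions were called in the main fit, 70 without IκB– MPP4 replicate 3 and 442 without IκB– HSC replicate 1. The median log2 fold change was -0.0025 for the members and -0.0021 for all regions. In bulk sorted cells, a smaller share of cells with an open site and less opening per cell cannot be told apart.

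Birc3, the inducible of the 2 neighbouring inhibitors of apoptosis, stood closest to the threshold. In HSC it read 48.7, 65.9 and 60.6 CPM in WT recipients and 94.97, 61.9 and 83.7 in IκB– recipients. In MPP2 the values were 82.2, 60.0 and 38.2 CPM in WT and 70.2, 79.8 and 68.7 in IκB–. These groups overlapped in both subsets, although every IκB– sample exceeded the mean of its WT group. In MPP3 the WT samples read 82.5 and 54.5 CPM and the IκB– samples 79.6, 132 and 118. In MPP4 the WT samples read 48.2, 68.8 and 56.7 CPM and the IκB– samples 108, 120 and 97.6. The MPP4 groups did not overlap, which held for 1 of 6 members there and for 11.8% of all regions.

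Over the subsets Birc3 averaged 60.6 ± 13.8 CPM in WT recipients (SD, n = 11) and 92.9 ± 22.7 CPM in IκB– recipients (SD, n = 12). All 12 IκB– samples lay above the WT mean of their subset and 7 above its highest WT sample. The mean recipient effect was a log2 fold change of 0.53 ± 0.16 SE (95% interval 0.21 to 0.85, edgeR quasi-likelihood test, Benjamini-Hochberg adjusted p = 0.0745), so it failed the correction over all regions. The adjusted p passed below the threshold without WT MPP2 replicate 1 (0.61, adjusted p = 0.0475) and without IκB– MPP3 replicate 1 (0.58, adjusted p = 0.0497). It also passed with the share of each library's counts at gene ends as a covariate (0.53, adjusted p = 0.0456), an alternative chosen after seeing the data. A replicate block fitted to the 24 libraries kept apart passed too (0.55, adjusted p = 0.0247), although replicate numbers were not taken to pair samples. Leaving out WT MPP3 replicate 2-3 gave the highest value, 0.252. With the regions summed per gene the log2 fold change was 0.51 (adjusted p = 0.123), where 0.541% of 10356 genes passed the adjusted threshold and 12% the unadjusted one. Birc3 has only 1 region, so this refits the same counts among genes and is no separate measure.

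Subset by subset, the Birc3 log2 fold change was 0.46 ± 0.36 for HSC and 0.16 ± 0.30 for MPP2. It was 0.65 ± 0.29 for MPP3 and 0.84 ± 0.32 for MPP4. None passed the adjusted threshold. The edgeR adjusted p was 0.425 in MPP3 and 0.590 in MPP4, the subsets in which the unadjusted value was under 0.05. The test of whether the effect differs between subsets gave an adjusted p of 0.999, so the larger values in MPP3 and MPP4 were not distinguished from those in HSC and MPP2. The MPP2 value rested on 1 sample for its sign: without WT MPP2 replicate 3 it was -0.017, and without WT MPP2 replicate 1 it was 0.47. The MPP3 value was 0.38 without WT MPP3 replicate 2-3 and 0.97 without replicate 1.

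Within a sample, the count of Birc3 relative to Birc2, its neighbour, does not depend on the scaling between libraries. This ratio was looked at after the values were seen and is a description only. It had a median of 0.333 in WT samples (0.219 to 0.636, n = 11) and 0.507 in IκB– samples (0.314 to 0.800, n = 12). The ranges overlapped, and the IκB– mean was the higher in each subset, at 0.532 against 0.318 in HSC, 0.389 against 0.348 in MPP2, 0.622 against 0.400 in MPP3 and 0.635 against 0.450 in MPP4. The Birc2 region itself averaged 169 ± 36.7 CPM in WT and 175 ± 33.3 in IκB– samples, a log2 fold change of 0.03 ± 0.13. From WT to IκB– recipients its mean went from 185 to 151 CPM in HSC, 173 to 193 in MPP2, 173 to 178 in MPP3 and 146 to 176 in MPP4. The higher ratio in HSC therefore also reflects a lower Birc2 level there.

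**Figure D2:**
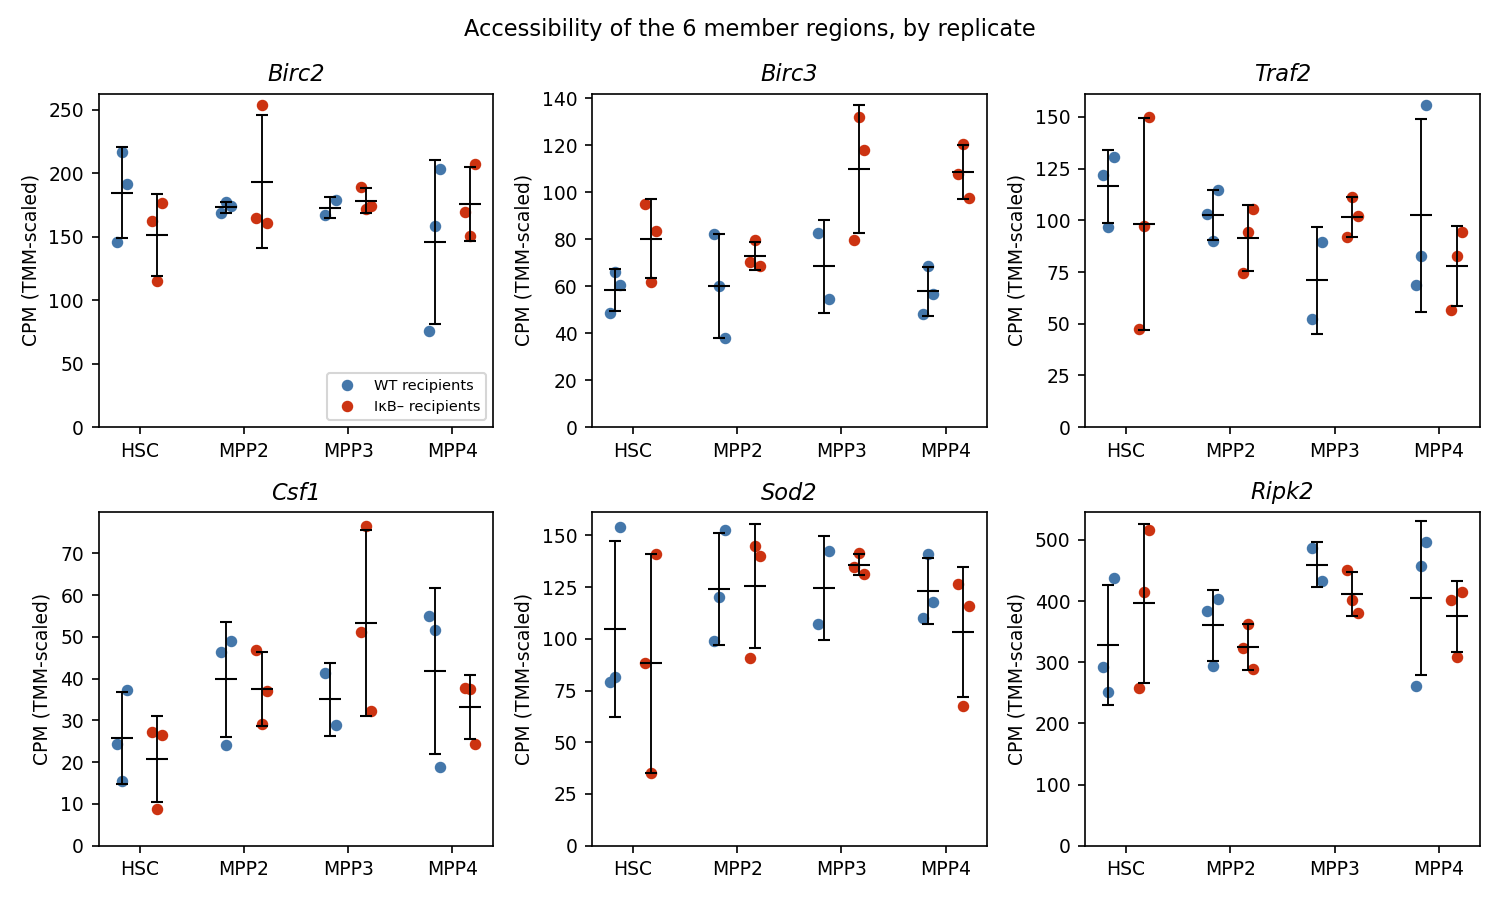
Accessibility in TMM-scaled CPM (y axis, from 0) of the 6 regions in HSC, MPP2, MPP3 and MPP4, each point 1 sample from WT (blue) or IκB– (red) recipients, with the mean and SD as black bars. The IκB– points of Birc3 lie above the WT points in MPP4 (97.6 to 120 against 48.2 to 68.8 CPM), and the other panels show overlapping groups except Traf2 in MPP3.

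The adaptor Traf2 showed no single direction. In HSC it read 122, 96.9 and 131 CPM in WT recipients and 47.5, 97.2 and 150 in IκB– recipients, and in MPP2 103, 90.0 and 115 against 74.3, 94.3 and 106. In MPP4 the WT samples read 68.9, 82.5 and 156 CPM and the IκB– samples 56.6, 82.8 and 94.6. Those groups overlapped. In MPP3 it read 52.5 and 89.4 CPM in WT and 91.9, 111 and 102 in IκB– recipients, which did not overlap, as was so for 1 of 6 members and for 28.2% of all regions in that subset, where WT has 2 samples. The log2 fold change in MPP3 was 0.49 ± 0.31 (edgeR adjusted p = 0.684), and it was 0.17 without WT MPP3 replicate 1 and 0.94 without replicate 2-3. The mean effect over subsets was -0.07 ± 0.16.

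Sod2, which converts superoxide in mitochondria, read 79.2, 81.4 and 154 CPM in WT HSC and 88.2, 35.4 and 141 in IκB– HSC. In MPP2 the values were 99.0, 120 and 153 against 90.8, 145 and 140, and in MPP3 107 and 142 against 135, 141 and 131. In MPP4 they were 110, 141 and 118 against 127, 67.7 and 116. The lowest sample, IκB– HSC replicate 2, rests on 4 counts, and the recipient types overlapped in all 4 subsets. The mean effect was -0.05 ± 0.15 on the log2 scale.

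For the members other than Birc3, the mean recipient effect ran from -0.07 to 0.03 on the log2 scale, and all 5 of the 95% intervals included 0, with bounds from -0.46 (Csf1) to 0.52 (Csf1). Their intervals do not show that the recipient types are alike, since for Csf1 they admit a change of that size. Of the 24 recipient effects by subset, 22 intervals included 0, and the exceptions were Birc3 in MPP3 and MPP4. No member passed the adjusted threshold in HSC, MPP2, MPP3 or MPP4, where 0%, 0%, 0.21% and 0.045% of regions did. At an unadjusted edgeR p under 0.05 the member counts were 0, 0, 1 and 1 of 6, against 6.23%, 3.65%, 9.49% and 7.07% of all regions. DESeq2 and limma-voom called none of the 6 in these 4 comparisons at the adjusted threshold. Groups that did not overlap numbered 0 of 6 in HSC and in MPP2, where 8.51% and 11.8% of all regions had none. No member's recipient effect differed between subsets by the joint test of the interaction (0 of 6 by edgeR, DESeq2 and limma-voom, where edgeR called 0% of all regions; at an unadjusted p under 0.05 also 0 of 6, where 4.05% passed).

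**Figure D3:**
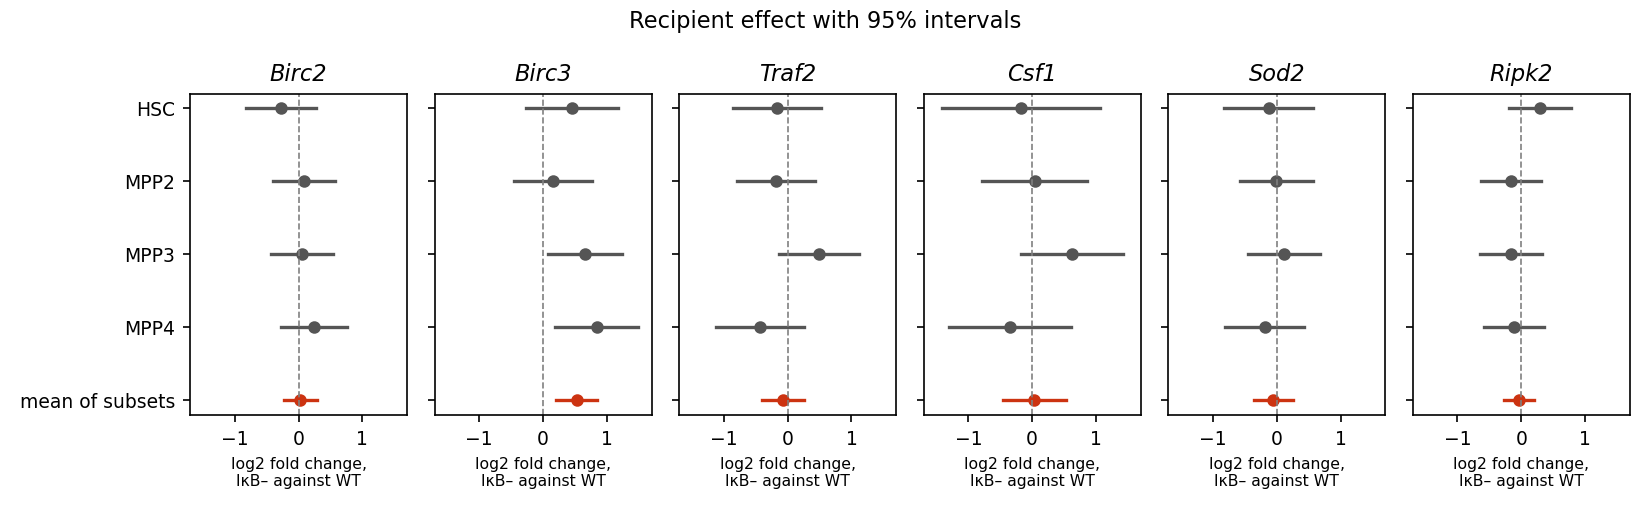
Log2 fold change of accessibility in IκB– against WT recipients (x axis) for each region, by subset (grey) and as the mean of subsets (red), with points at the edgeR estimate and lines for the 95% interval. The Birc3 interval for the mean of subsets, 0.21 to 0.85, lies to the right of 0, and those of the other 5 regions cross it.

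The second comparison asks whether the 4 subsets differ, over both recipient types. No member passed the joint test of the subsets (0 of 6, where 7.2% of all regions passed the adjusted threshold; at an unadjusted p under 0.05 0 of 6, where 18.8% did). Summed per gene, where each of the 6 has only its 1 region, the counts were again 0 of 6 at both, with 2.62% and 14.3% of genes. DESeq2 and limma-voom called none of them. The smallest edgeR p belonged to Csf1 (adjusted p = 0.423), followed by Ripk2 (adjusted p = 0.491) and Birc3 (adjusted p = 0.682).

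Csf1, the growth factor that drives macrophage production, had its lowest group means in HSC. It read 24.4, 15.5 and 37.3 CPM in WT HSC and 27.1, 8.84 and 26.4 in IκB– HSC, from 1 to 8 counts each. The sample at 8.84 CPM is 1 count, where 3 counts would be 26.5 CPM. In MPP2 it read 46.4, 24 and 49.1 CPM in WT and 46.8, 29.0 and 37.0 in IκB– recipients, and in MPP3 41.3 and 28.8 against 51.2, 76.5 and 32.2. In MPP4 it read 55.1, 51.6 and 18.9 CPM against 37.7, 37.6 and 24.4. The HSC samples ran up to 37.3 CPM and so overlapped with every other subset. The difference of MPP3 from HSC was 0.85 ± 0.35 on the log2 scale (edgeR adjusted p = 0.234) and that of MPP2 from HSC 0.73 ± 0.36 (adjusted p = 0.593), neither past the adjusted threshold.

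The regions elsewhere with the group profile most like that of Csf1, by Pearson's r of mean log2 CPM over the 8 groups, were at Ankrd40 (r = 0.974), nearest Spred2 (r = 0.971) and at Rab12 (r = 0.951). In all 27 regions had an r over 0.9 with Csf1. The 8 points share their libraries and depths, and low counts make such a profile noisy, so the values are a description.

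Ripk2 was the most accessible of the 6. It read 292, 252 and 438 CPM in WT HSC and 258, 415 and 516 in IκB– HSC. In MPP2 it read 384, 294 and 404 CPM in WT and 323, 363 and 288 in IκB– recipients, and in MPP3 486 and 433 against 451, 401 and 381. In MPP4 it read 262, 457 and 496 CPM in WT and 401, 309 and 415 in IκB– recipients. MPP3 had the highest mean of the subsets and MPP2 the lowest, with a log2 difference of 0.36 ± 0.17 (edgeR adjusted p = 0.195). With cyclic loess scaling the difference was 0.41 (adjusted p = 0.0363) and with limma-voom 0.38 (adjusted p = 0.0485), both past the threshold. The replicate block fitted to the 24 libraries kept apart also passed (0.36, adjusted p = 0.0475). With the share of counts at gene ends as a covariate the difference was 0.23 (adjusted p = 0.333).

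Taken pair by pair, 33 of 36 subset differences had a 95% interval that included 0. For MPP2 against HSC 0 of 6 members passed the adjusted threshold (0.03% of all regions) and 1 the unadjusted one (8.32%). For MPP3 against HSC the counts were 0 (2.58%) and 1 (14.3%), and for MPP4 against HSC 0 (1.22%) and 0 (12%). For MPP3 against MPP2 they were 0 (8.12%) and 1 (21.8%), for MPP4 against MPP3 0 (0%) and 0 (4.04%), and for MPP4 against MPP2 0 (3.37%) and 0 (15.7%). These edgeR counts did not differ with DESeq2 at the adjusted threshold, and limma-voom called 1 member, Ripk2, in MPP3 against MPP2. The comparisons with HSC share the HSC samples.

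**Figure D4:**
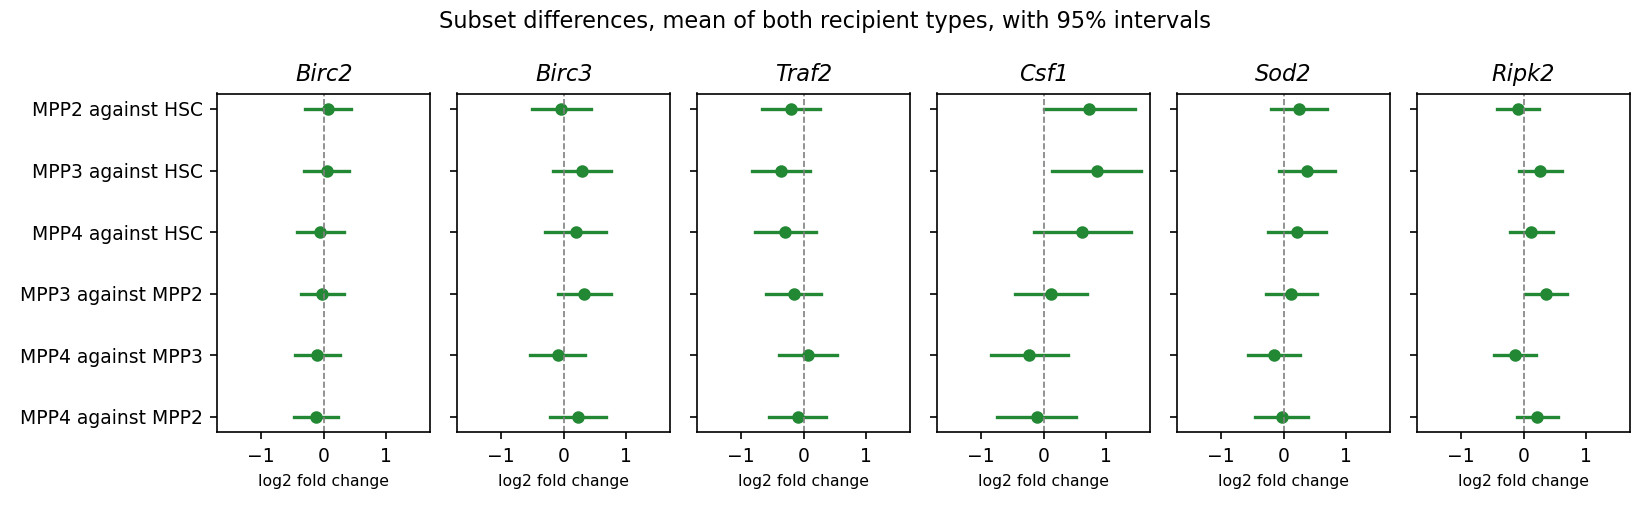
Log2 fold change between subsets (x axis), averaged over WT and IκB– recipients, for the 6 pairs of subsets in each region, with points at the edgeR estimate and lines for the 95% interval. The intervals of Csf1 for MPP2 and MPP3 against HSC and of Ripk2 for MPP3 against MPP2 lie to the right of 0, and the other 33 include it.

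The order of the 8 group means also differed from gene to gene. The IκB– MPP3 group had the highest mean for Birc3 (110 CPM), Csf1 (53.3) and Sod2 (136), WT MPP3 for Ripk2 (460), IκB– MPP2 for Birc2 (193) and WT HSC for Traf2 (116). The lowest groups were WT MPP4 for Birc2 (146) and Birc3 (57.9), WT MPP3 for Traf2 (71.0), IκB– HSC for Csf1 (20.8) and Sod2 (88.2), and IκB– MPP2 for Ripk2 (325). The ratio of the highest to the lowest group mean was 2.56 for Csf1, 1.90 for Birc3, 1.64 for Traf2, 1.54 for Sod2, 1.42 for Ripk2 and 1.33 for Birc2. Neighbouring groups in these orders overlapped throughout for 5 of the 6 genes. In Birc3 1 neighbouring pair was apart, IκB– MPP4 (97.6 to 120 CPM) and IκB– HSC (61.9 to 94.97 CPM), and 14.7% of all regions had at least 1 such pair.

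Across samples the regions moved with one another only in part. Within groups, over 23 samples, Pearson's r of log2 CPM was 0.62 between Traf2 and Ripk2, 0.51 between Birc2 and Ripk2 and 0.46 between Birc2 and Sod2, and it was 0.27 between the neighbours Birc2 and Birc3. The lowest within groups were -0.30 between Birc2 and Csf1, -0.30 between Traf2 and Csf1 and -0.21 between Birc3 and Traf2. The share of a library's nuclear counts that fell within 1 kb of gene ends ran from 61.1% to 71.1% in WT and from 62.6% to 73.8% in IκB– samples. Over the same 23 samples, here with the group means not taken out, the r of log2 CPM with this share was 0.675 for Ripk2 and 0.673 for Traf2. It was 0.525 for Birc2 and 0.407 for Sod2, against 0.083 for Birc3 and -0.029 for Csf1. The members are part of that share, and these values are descriptions.

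Around these genes, 67 other genes of the pathway were counted in 5 lists, and 48 of them had a region, with 75 regions in all and 73 tested. For the mean recipient effect 2 of the 73 regions were called higher in IκB– recipients and 0 lower, beside 1.73% of all regions called in either direction. Both lay inside Bcl3, which encodes an atypical IκB protein that works with NF-κB dimers in the nucleus. The regions chr7:19816386-19816595 and chr7:19817361-19817769 had log2 fold changes of 0.89 ± 0.23 (edgeR adjusted p = 0.0319) and 0.63 ± 0.17 (adjusted p = 0.0456). Their mean CPM by subset was 28.7 to 50.3, 15.5 to 31.6, 27.3 to 52.3 and 29.2 to 48.2 from WT to IκB– recipients for the former, in HSC, MPP2, MPP3 and MPP4, and 41.8 to 82.1, 33.7 to 56.0, 61.7 to 72.2 and 54.6 to 85.7 for the latter. Both calls depended on single samples. The former was lost with DESeq2 (adjusted p = 0.0507) and in 9 of the 23 fits that leave out 1 sample, those without WT HSC 2, MPP2 2, MPP3 1, MPP3 2-3 or MPP4 2, or IκB– HSC 3, MPP2 3, MPP3 3 or MPP4 3 (adjusted p 0.0165 to 0.101 over all fits). The latter was lost with DESeq2 (0.0865), with total counts (0.0506), with the 24 libraries apart (0.0506) and in 18 of the 23 fits, all but those without WT HSC 1, MPP2 1 or MPP4 3, or IκB– HSC 1 or MPP3 3 (0.0222 to 0.114).

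The 5 subunit genes, the 10 kinase genes, the 19 receptors and adaptors and the 23 other targets had no region called between recipient types, with median log2 fold changes of 0.15, 0.03, 0.06 and 0.20 beside -0.0021 over all regions. The joint subset test called 3 of the 73 regions, against 7.2% of all regions, and these were near or in Nod2, Selp and Irf1. Nod2, a sensor of bacterial cell wall that signals through RIPK2, was open more in MPP3 and MPP4: its region averaged 30.6 CPM in WT HSC and 31.5 in WT MPP2 against 64.9 in WT MPP3 and 52.0 in WT MPP4, and 20.1 and 24.6 against 57.1 and 117 in IκB– recipients (edgeR adjusted p = 5.60e-04). The region near Selp, which encodes an adhesion molecule of platelets and endothelium, averaged 28.3, 24.1, 6.21 and 18.9 CPM in WT recipients, in the order HSC to MPP4, and 15.6, 31.0, 4.79 and 16.5 in IκB– recipients (adjusted p = 0.0100). It was lowest in MPP3 in both. The regions of 2 megakaryocyte markers were called by the same test. That in Vwf, a clotting protein of megakaryocytes and endothelium, averaged 28.8, 33.2, 6.42 and 21.5 CPM in WT and 19.6, 21.0, 1.26 and 12.6 in IκB– recipients (adjusted p = 0.00743, or 0.0519 without WT MPP3 replicate 1), and that at Pf4, a platelet chemokine, 35.0, 53.5, 25.8 and 17.3 and 34.9, 45.7, 17.2 and 19.4 (adjusted p = 0.0179, or 0.0627 with limma-voom, 0.164 without WT MPP2 replicate 2 and 0.120 without IκB– MPP2 replicate 1). The Vwf mean in IκB– MPP3, 1.26 CPM, is less than 3 counts would give in any sample of that group. The part of these megakaryocyte markers in the Selp difference was not tested. The region near Irf1, a transcription factor of interferon responses, averaged 67.0, 43.7, 72.3 and 86.4 CPM in the same order in WT and 58.4, 46.1, 121 and 69.7 in IκB– recipients (adjusted p = 0.0126). It was lowest in MPP2 in both, and highest in MPP4 in WT and in MPP3 in IκB– recipients. Without WT MPP3 replicate 2-3 the Selp and Irf1 calls were lost (adjusted p = 0.0889 and 0.0883), and the Irf1 call also without IκB– MPP2 replicate 1 (0.0661).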

How the data were processed

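Counts of ATAC-seq reads per region were used as deposited by the authors, 13910 regions by 24 libraries, whole numbers that are not normalized. The submitters' processing notes name Bowtie2, SAMtools, Picard, MACS2 2.1.0, deepTools and mm10, with no role or order. How duplicates, transposase offsets and region calling were handled is not given in the sources used here, and each could change which genes have a region. In the deposited table, columns marked KO were read as IκB– and LT as HSC, each matching 1 title.

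The members and lists were chosen with earlier results of these data known. Regions were assigned to RefSeq GRCm38.p6 genes by the 50 kb rule given in the report. Counts were fitted with edgeR 4.0.16 (TMM, filterByExpr, 13325 regions, 8 group means, robust quasi-likelihood, 15 residual degrees of freedom, Benjamini-Hochberg over all regions, threshold 0.05) in R 4.3.3. All 6 member regions passed the filter. The mean recipient effect averages the 4 subsets equally, and SE is the absolute log2 fold change over the square root of F. Log2 CPM used a prior count of 2. Alternatives were other scalings, no filter, DESeq2 1.42.0, limma-voom (limma 3.58.1), unmerged libraries, a replicate block, a 1 kb rule and each sample left out. The edgeR fit was also run on simulated data, but the outcome is not given here and nothing is concluded from it.

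Named genes were all members and any pathway gene with a called region. The marker genes Slamf1, Cd34, Vwf and Pf4 were chosen after their values were seen. Values per sample were given for the 3 members with the smallest p in the mean recipient effect and in the joint subset test, and the 3 regions most like the leading member of the latter were named.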

Additional observations from a re-analysis of the deposited data

How the results depend on the processing

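In the 13 comparisons over regions, counts of members called stayed at 0 with DESeq2's size factors, total counts, nuclear regions only, no filter, DESeq2 and the 24 libraries kept apart. The 1 kb rule keeps the same member regions and the same fit, so it could not change these counts. The mean recipient effect gained 1 call (Birc3) with a replicate block fitted to the 24 libraries kept apart (0.55, adjusted p = 0.0247, against 0.0534 with the libraries kept apart and no block), with each library's share of counts at gene ends as a covariate, added after seeing the data (0.53, adjusted p = 0.0456), and without either of 2 samples, so leaving out one gave 0 to 1 calls. With that block the summed counts per gene also gained 1. MPP3 against MPP2 gained 1 call (Ripk2) with cyclic loess (0.41), limma-voom (0.38) and the same block (0.36, adjusted p = 0.0475, against 0.140 with the libraries kept apart and no block). The block changed no other member call. Replicate numbers were not taken to pair samples: correlations of same-numbered samples ran from -0.051 to 0.405, with 52 of 84 over 0.1 and a mean of 0.138 against -0.069 for other numbers, although all 24 libraries correlated best with a library of their own number, a hint from the data and not from the design.

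Mean recipient effects near 0 changed sign when 1 sample was left out. They ran from -0.033 to 0.099 for Birc2, -0.21 to 0.039 for Traf2, -0.051 to 0.14 for Csf1, -0.19 to 0.049 for Sod2 and -0.10 to 0.038 for Ripk2. Birc2 also turned to -0.0064 with cyclic loess. Birc3 stayed between 0.46 and 0.61 (adjusted p 0.0475 to 0.252), and between 0.50 and 0.55 over the other alternatives (adjusted p 0.0247 to 0.135). Its MPP2 effect ran from -0.017 to 0.47. The cause was not tested. Counts of 1 to 54 limit Csf1 most.

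Nod2 was called in all 23 fits. Irf1 was not called with limma-voom (adjusted p = 0.0756). Selp was tested in 14 of 23 fits, the filter removing it in 9.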
